A study of Drosophila melanogaster with 10 samples.

Results

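The cytoplasmic ribosomal protein genes are the genes whose symbol starts with RpL or RpS followed by a digit or a P. They were chosen by their symbols alone, and they are 92 of the 17757 genes listed for every library. By symbol, 54 were counted to the large subunit (RpL) and 38 to the small subunit (RpS). The genes of mitochondrial ribosomal proteins (mRpL and mRpS) carry other symbols and are not among them.

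All libraries came from *Drosophila* pupae that carried the driver *SS00324-Gal4* and, recombined with it, the reporter *UAS-mCD8::GFP*, in which a split-Gal4 line drives a membrane-bound GFP in the T4 and T5 neurons of the optic lobe. These are the first direction-selective neurons of the motion pathway, and each comes in the subtypes a, b, c and d. GFP-positive cells were sorted and profiled by droplet-based scRNA-seq at 24, 36, 48, 60 or 72 h APF (counted from the formation of the puparium), with 2 libraries at each stage, and no stage had an untreated or mutant counterpart. The labels do not say from how many pupae a library was made, so p-values measure the spread between these libraries.

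Each ribosome joins a small and a large subunit, in which ribosomal RNA is held by many different proteins that are needed in nearly equal numbers. Cells therefore tend to make the messages of these proteins together, and growing cells spend a large part of their transcription on them. In *Drosophila*, loss of a single copy of many of these genes gives the Minute phenotype of slow growth and short bristles. Some of the genes have a further copy in the fly genome that is known mainly from the germ line.

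The libraries held 72871 cell barcodes and 338727250 unique molecular identifiers (UMIs, each of which stands for a captured RNA molecule). Of these barcodes, 44695 fell into clusters that could be named as 1 of the 8 T4/T5 subtypes, between 989 and 7733 in a library and between 107 and 1516 in a subtype of a library. Levels are given as CPM, the UMIs of a gene per 1000000 UMIs of the named cells. The markers SoxN (1122 to 4118), Lim1 (731 to 1600) and Sox102F (511 to 1118 CPM) were high in the named cells of all 10 libraries. Clusters low in these 3 markers had been removed, so their high levels follow from the selection. The glial gene repo stood at 0.0546 to 0.599 CPM. The glial markers Gs2, Eaat1 and alrm were highest in replicate 1 at 72 h APF, at 4.22, 5.73 and 3.26 CPM. A further gene measured as a glial marker, nrv2, was at 45.5 to 450 CPM and highest in the libraries of 60 h APF. Any pair of libraries shared between 0 and 53 barcode sequences. Subtype names were rebuilt from marker genes with the ribosomal protein genes kept out of the clustering, so the subtypes compared here were not defined by them.

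As a mean of the 2 libraries, the T4/T5 neurons gave a smaller part of their transcripts to ribosomal proteins at each later stage. In the replicates, the share of all UMIs of the named cells that fell to ribosomal protein genes was 15.2 and 17.1% (24 h), 11.2 and 13.6% (36 h), 8.51 and 11.6% (48 h), 8.62 and 8.50% (60 h), and 5.37 and 8.65% (72 h APF). The mean share was 16.2 ± 1.33% (24 h), 12.4 ± 1.71% (36 h), 10.1 ± 2.20% (48 h), 8.56 ± 0.0896% (60 h) and 7.01 ± 2.32% (72 h APF) (SD, n = 2 libraries each). Both libraries of 72 h lay below both libraries of 24 and 36 h APF. The ranges of 36 and 48 h overlapped, as did those of 48, 60 and 72 h, so a fall at each single step is not shown. The difference between 72 and 24 h APF was -9.16 percentage points, and it lay between -10.8 and -7.52 points when any library was left out. In UMIs per cell, the median cell held 962 and 854 (24 h), 929 and 495 (36 h), 543 and 601 (48 h), 632 and 467 (60 h), and 162 and 351 ribosomal protein UMIs (72 h APF).

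**Figure D1:**
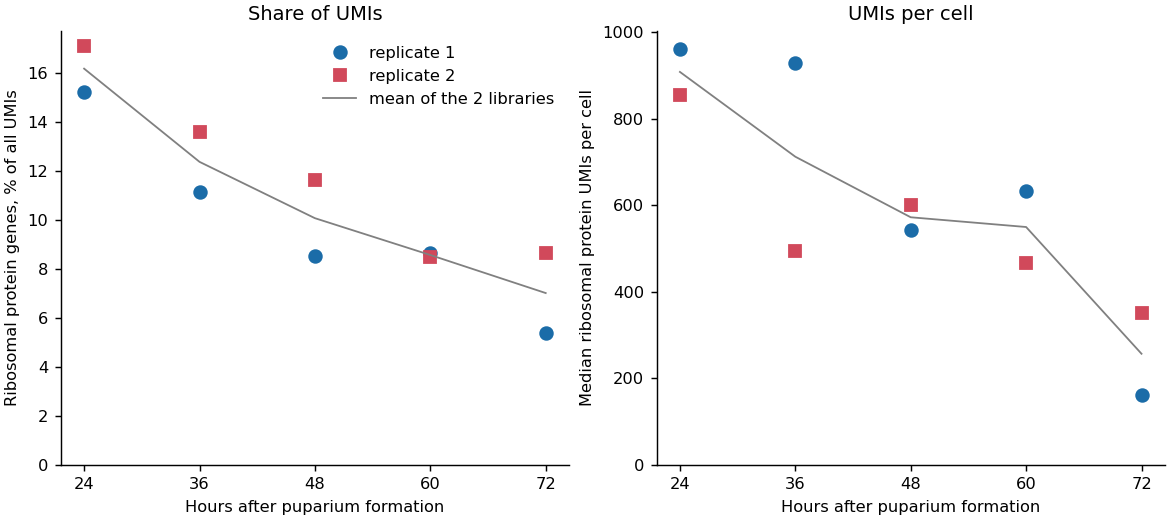
Ribosomal protein genes against hours after puparium formation, as a share of all UMIs of the named cells in percent (left) and as the median number of their UMIs per cell (right), with a point for each library and a line through the mean of the 2 libraries. The mean share was 7.01% at 72 h against 16.2% at 24 h APF, and the replicates lay far apart at 72 h (5.37 and 8.65%).

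Both subunits took part in this decline. Of all UMIs, the large-subunit genes held 9.38 ± 0.775% (24 h), 7.24 ± 0.961% (36 h), 6.01 ± 1.17% (48 h), 5.10 ± 0.0125% (60 h) and 4.27 ± 1.26% (72 h APF). The small-subunit genes held 6.79 ± 0.553% (24 h), 5.12 ± 0.752% (36 h), 4.05 ± 1.03% (48 h), 3.46 ± 0.0771% (60 h) and 2.74 ± 1.06% (72 h APF) (SD, n = 2 libraries). Within a library the large subunit made up between 58.0 and 63.0% of the ribosomal protein UMIs. Other measures of the libraries differed between stages as well, and their part in the decline was not tested. The median named cell held 2966.5 and 4070 UMIs in the libraries of 72 h against 6297 and 4971 in those of 24 h APF. Mitochondrial transcripts took 3.61 and 6.92% of the UMIs at 72 h against 4.31 and 4.73% at 24 h, and heat-shock genes took 0.806 and 0.9495% at 72 h against 4.24 and 3.32% at 24 h APF. In cells of 3000 to 8000 UMIs alone the mean share was 7.10 ± 2.25% at 72 h against 16.3 ± 1.45% at 24 h APF (SD, n = 2 libraries).

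The libraries tag each molecule once at its 3′ end, so that levels were not divided by gene length. The 3 shortest members limit this, since their levels differed several times between replicates. Most of the 92 genes were abundant and lay close together: 59 had a mean over the 10 libraries of more than 1000 CPM, 22 of 100 to 1000, 2 of 10 to 100, and 9 of under 10. No gene dominated, as the 5 highest made up 10.96% and the 20 highest 36.9% of the ribosomal protein UMIs. The 5 highest were RpL15, RpL40, RpS26, RpL28 and RpS27.

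RpL15, a protein of the large-subunit core, averaged 2631 CPM and had 3228 and 3886 (24 h), 2046 and 2614 (36 h), 1627 and 2996 (48 h), 2438 and 2318 (60 h), and 1827 and 3328 (72 h APF). Its libraries at 72 h overlapped those at 24 h. RpL40, which is made as a fusion with ubiquitin, had 2652 and 3177 (24 h), 2547 and 2996 (36 h), 1891 and 2964 (48 h), 2102 and 2056 (60 h), and 1182 and 2046 CPM (72 h APF). RpS26, a small-subunit protein near the path of the mRNA, had 2504 and 3020 (24 h), 1880 and 2382 (36 h), 1188 and 2597 (48 h), 2337 and 2302 (60 h), and 1179 and 2712 CPM (72 h APF). The replicates of RpS26 at 48 and 72 h lay further apart than the means of any pair of stages. RpL28 of the large subunit had 1177 and 2173 CPM at 72 h against 2746 and 3178 at 24 h APF, and RpS27 of the small subunit had 1329 and 1469 at 72 h against 2963 and 3134 at 24 h APF, with no overlap between these stages for either.

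At the other end stood gene copies with almost no transcripts in these neurons. RpS19b, RpL10Aa, RpL22-like and RpS28-like had 0 of 219140706 UMIs, which by counting error alone allows up to 0.0137 CPM. RpS28a had 1 UMI and RpL37b had 6 UMIs over all libraries, and RpL7-like, whose yeast relative Rlp7 acts in ribosome assembly, had 13. RpL7-like overlaps another coding gene, CG34164, on its strand, so that its UMIs are uncertain. RpS19b and RpL22-like are known from the germ line of *Drosophila*. The partners of these copies were abundant in every library, with means over all libraries of 768 CPM for RpS19a, 1303 for RpL10Ab, 138 for RpL22, 1482 for RpS28b, 1772 for RpL37a and 1207 for RpL7.

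The comparison of 72 h with 24 h APF asks which genes changed between the first and the last stage profiled, an interval that runs from before the growth of the dendrites to its end. On sums of UMIs per library (edgeR quasi-likelihood test with TMM scaling, a fit of all 10 libraries, Benjamini-Hochberg adjusted over 8070 genes), 85 of the 92 members had enough UMIs to be tested. At 72 h APF 43 of them were lower and 1 was higher, against 29.4% of all tested genes that were lower and 29.0% that were higher. The median log2 change of the members was -0.79 and that of all tested genes was 0.03. Of 50 tested genes with RpL symbols 23 fell and 1 rose, and of 35 with RpS symbols 20 fell. The 1 that rose was RpL24-like. Like RpLP0-like, it is counted here by its symbol, while its yeast relative acts in ribosome assembly. The other 41 tested members did not pass the test, and with 2 libraries at a stage this does not show that they kept their level.

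The count depended on the libraries and on the scale. Without replicate 2 of 24 h APF 21 members were lower and 1 higher, without replicate 1 of 72 h 28 were lower and 1 higher, and without replicate 2 of 72 h 63 were lower and 3 higher. Scaled by total UMIs instead, 72 members were lower and 0 higher, with a median of -1.33 where the median of all tested genes was also shifted, to -0.53. How many of all tested genes were called on this scale was not counted, so this number has no background beside it. By their levels in CPM, 79 members had both libraries of 72 h below both of 24 h APF, and 1 had both above. Among all 10130 genes with at least 10 UMIs these shares were 52.3 and 23.0%.

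**Figure D2:**
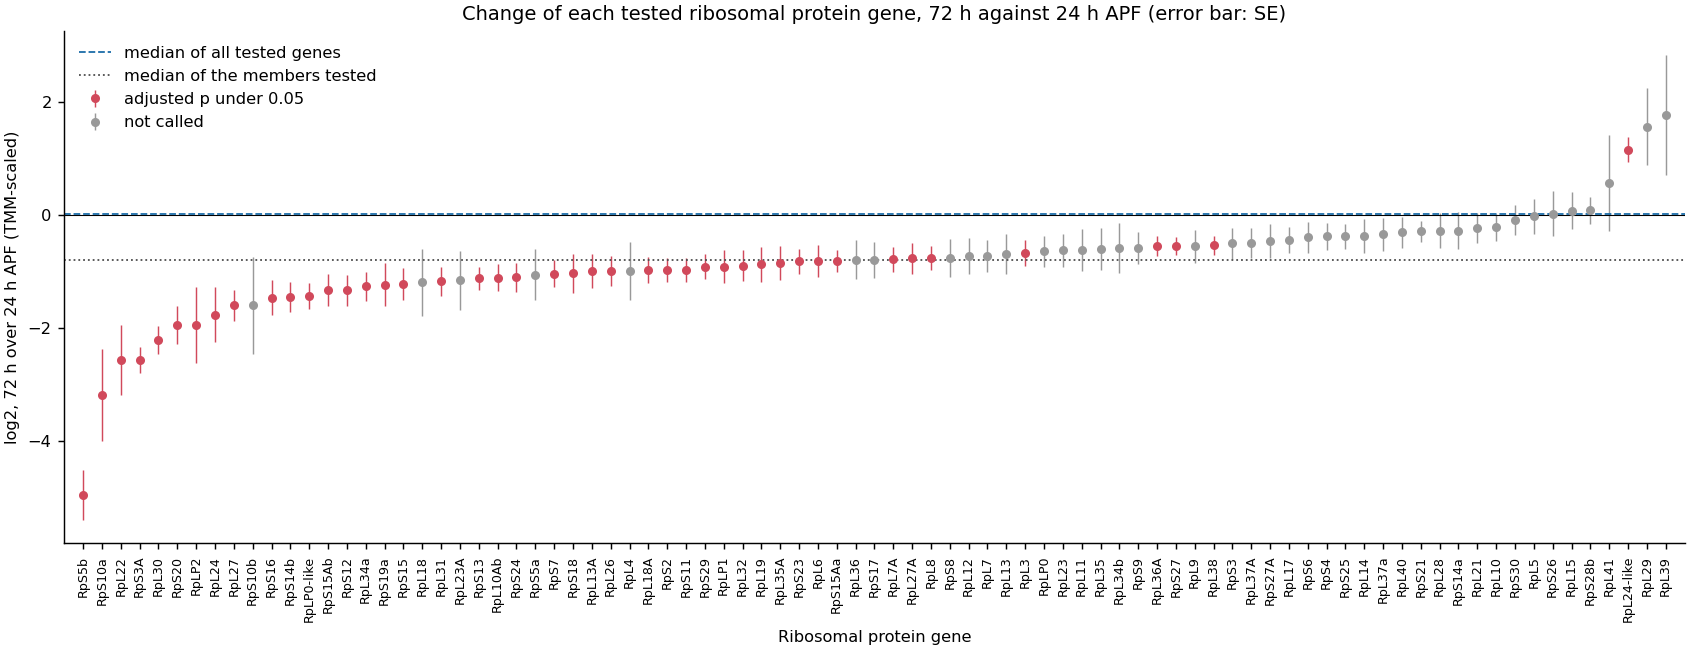
Log2 change at 72 h against 24 h APF of the tested ribosomal protein genes, with bars of 1 standard error from edgeR, red points for genes with an adjusted p under 0.05 and grey points for the others. Most points lie below 0, around the median of -0.79, and RpL24-like is the called gene above 0.

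The largest fall among called members belonged to RpS5b, the second copy of the small-subunit gene RpS5a, which is known for its part in oogenesis. RpS5b had 3 and 7 UMIs at 72 h, against 155 and 400 at 24 h APF, or 0.239 and 0.219 against 10.3 and 10.4 CPM. Its level at 72 h was 0.0217 of that at 24 h by pooled UMIs (exact 95% interval 0.0103 to 0.0402), and the fitted log2 change was -4.95 ± 0.44 (SE, adjusted p = 2.95e-05). The decline ran through the middle stages, with 1.58 and 2.62 (36 h), 0.328 and 0.464 (48 h), and 0.0449 and 0 CPM (60 h APF). RpS5b was a small part of the RpS5a and RpS5b UMIs throughout, at 0.0442 ± 0.0261% at 72 h against 0.568 ± 0.103% at 24 h APF (SD, n = 2 libraries).

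RpS10a, the rare copy of the small-subunit gene RpS10b, had 1 and 2 UMIs at 72 h against 13 and 39 at 24 h APF. The ratio of its pooled levels was 0.0694 with an exact 95% interval of 0.0139 to 0.214, and its adjusted p was 0.0093 (edgeR). This call was lost without replicate 2 of 24 h (adjusted p = 0.0666, edgeR) and without replicate 2 of 72 h APF (adjusted p = 0.0949, edgeR).

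Of the called members with more than 1000 CPM in both libraries of 24 h APF, RpS3A fell most. RpS3A is a small-subunit protein, encoded by the 1 member on chromosome 4 (bases 65225 to 67207, minus strand, of the BDGP6.54 annotation), and had 179 and 307 CPM at 72 h against 2138 and 2076 at 24 h APF. Its level went down at each stage in between, with 1092 and 1422 (36 h), 698 and 835 (48 h), and 366 and 341 CPM (60 h APF), and no library of a later stage reached any of an earlier one. The log2 change of RpS3A was -2.56 ± 0.23 (SE, adjusted p = 3.35e-05 by edgeR). RpL30 of the large subunit had 146 and 235 CPM at 72 h against 1157 and 1420 at 24 h APF, a log2 change of -2.21 ± 0.25 (SE, adjusted p = 0.000124 by edgeR).

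RpL22, an RNA-binding protein of the large subunit, had 12.49 and 32.7 CPM at 72 h against 281 and 114.7 at 24 h APF. The groups did not overlap, but the libraries of each stage differed by a large factor, with 306 and 175 (36 h), 107 and 64.9 (48 h), and 91.5 and 201 (60 h APF). Its log2 change was -2.57 ± 0.62 (SE, adjusted p = 0.00738 by edgeR), and the call was lost without replicate 1 of 24 h (adjusted p = 0.0543, edgeR).

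RpLP0, RpLP1 and RpLP2 form the stalk of the large subunit, which recruits the factors of translation. RpLP1 had 849 and 1601 CPM at 72 h against 3149 and 3558 at 24 h APF (log2 change -0.91 ± 0.29 SE, adjusted p = 0.0262 by edgeR), a call that was lost without either library of 24 h (adjusted p = 0.0567 and 0.130, edgeR) and without replicate 1 of 72 h APF (adjusted p = 0.127, edgeR). RpLP2 had 103 and 729 against 2102 and 2402, with a log2 change of -1.94 ± 0.67 (SE, adjusted p = 0.0353 by edgeR). The call of RpLP2 was lost in 6 of 10 fits that left out a library (either library of 24, 36 or 60 h APF). RpLP0, the base of the stalk, had 471 and 850 against 1500 and 1517 CPM and did not pass the test (-0.64 ± 0.27 SE, adjusted p = 0.0685 by edgeR). It passed under total UMIs (adjusted p = 0.0081, edgeR) and without replicate 2 of 72 h APF (adjusted p = 0.0145, edgeR).

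RpL24-like was the member that rose. It is named after RpL24, and its yeast relative Rlp24 acts in the assembly of the large subunit. RpL24-like had 205 and 336 CPM (72 h) against 182 and 174 (24 h APF), with 117 and 156 (36 h), 172 and 209 (48 h), and 219 and 207 (60 h APF). Its log2 change was 1.16 ± 0.21 (SE, adjusted p = 0.00188 by edgeR with TMM), and 0.60 with an adjusted p of 0.0677 under total UMIs. RpL24 fell in the same cells, with 145 and 518 at 72 h against 1475 and 1743 CPM at 24 h APF (log2 change -1.76 ± 0.48 SE, adjusted p = 0.0131 by edgeR), a call that was lost without replicate 2 of 24 h APF (adjusted p = 0.0653, edgeR). Of the UMIs of both genes RpL24-like took 10.99 and 9.07% (24 h), 10.7 and 10.6% (36 h), 23.0 and 17.3% (48 h), 27.1 and 26.5% (60 h), and 58.6 and 39.3% (72 h APF). The genes lie on different chromosome arms, RpL24-like on 3R and RpL24 on 2L.

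In 4 other pairs of copies the rarer copy had a lower part at 72 h, whereas the part of RpS10a among the RpS10a and RpS10b UMIs was 0.132 and 0.0070% at 72 h against 0.0445 and 0.0491% at 24 h APF. RpS14b and RpS14a encode the same protein from neighbouring genes on X (RpS14a at 7933742 to 7934677 and RpS14b at 7934898 to 7935792, plus strand, BDGP6.54), so that reads could be split between them. RpS14b took 6.69 and 6.35% of their UMIs at 72 h against 13.9 and 13.3% at 24 h APF, and fell by itself with a log2 change of -1.45 ± 0.26 (SE, adjusted p = 0.00172 by edgeR). RpS15Ab took 1.75 and 2.52% of the RpS15Aa and RpS15Ab UMIs at 72 h against 3.40 and 2.91% at 24 h. RpLP0-like, whose yeast relative Mrt4 acts in ribosome assembly, took 1.30 and 0.849% against 1.80 and 1.70% of the UMIs shared with RpLP0. RpL34a took 19.4 and 11.5% of the RpL34a and RpL34b UMIs at 72 h against 19.7 and 20.4% at 24 h APF. RpL34b was itself low in replicate 1 of 72 h, at 279 CPM against 962 in replicate 2.

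Some other members had a log2 change near the median of all tested genes, which does not show that they kept their level. On the TMM scale the log2 change at 72 h against 24 h APF was 0.08 ± 0.32 for RpL15, 0.03 ± 0.41 for RpS26, 0.08 ± 0.24 for RpS28b, -0.02 ± 0.31 for RpL5 and -0.08 ± 0.27 for RpS30 (SE, adjusted p between 0.789 and 0.958 by edgeR). None of the 5 passed the test, and the sign of RpL15, RpS26 and RpS28b turned under total UMIs (-0.46, -0.51 and -0.47). In CPM, RpS28b had 974 and 1631 at 72 h against 1698 and 1904 at 24 h APF, with no overlap. RpL5 and RpS30 were likewise lower in CPM in both libraries of 72 h than in both of 24 h APF. Measured against the total of the ribosomal protein genes, 17 members were lower and 6 higher (RpL24-like, RpL29, RpS28b, RpL15, RpL5 and RpS30). Of all tested genes 14.4% were lower and 42.6% higher. This scale holds the sum of the members fixed, which shifts all other genes. The median log2 change was -0.13 for the members and 0.70 for all tested genes. The shares of all tested genes are therefore no independent background for the 17 and the 6. Without replicate 1 and without replicate 2 of 24 h APF 7 members were lower and 2 higher on this scale. Without replicate 1 of 36, 48 and 72 h together 27 were lower and 17 higher.

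Single steps between neighbouring stages gave few calls. At 36 h against 24 h APF 1 member was lower (RpS5b) and 0 were higher, against 1.26% of all tested genes lower and 3.04% higher. RpS5b was also the 1 member lower at 48 h against 36 h, where 7.31% of all tested genes were lower. At 60 h against 48 h 2 were lower (RpS5b and RpS3A), against 9.73% of all tested genes, and at 72 h against 60 h APF 3 were lower (RpL22, RpS14b and RpL30), against 4.18%. In each of the 4 steps 0 members were higher, while 3.04, 9.74, 9.26 and 4.99% of all tested genes were, in order of time. The median log2 change of the members was -0.35, -0.12, -0.10 and -0.19 in the 4 steps in order. In each of the first 3 steps 3 of 85 members had an unadjusted p under 0.05 (edgeR), against 1105, 2424 and 2604 of all 8070 tested genes. The counts of single steps moved with the libraries, and at 72 h against 60 h APF 12 members were lower without replicate 2 of 72 h, 1 without either library of 36 h, and 0 without replicate 1 of 72 h or either library of 60 h. The call at 36 h against 24 h was lost without either library of 24 h or replicate 1 of 36 h APF, and that at 48 h against 36 h without replicate 2 of 36 h. At 60 h against 48 h 0 members were called without replicate 2 of 48 h or of 60 h APF, and 1 without replicate 1 of 60 h.

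Replicate 1 stood apart from replicate 2 at 36, 48 and 72 h APF in the 3 shortest genes. RpL39 (288 bases of exon), RpL41 (320) and RpL29 (389) are the 3 shortest tested members by annotated exons (Ensembl, BDGP6.54), and each was higher in replicate 1 than in replicate 2, by 1.71 to 2.95 times at 36 h, 2.54 to 5.42 times at 48 h and 3.804 to 8.25 times at 72 h APF. Of the other 82 tested members 76, 78 and 78 were lower in replicate 1 at these 3 stages, with a median ratio of 0.785 (36 h), 0.675 (48 h) and 0.549 (72 h). At 24 and 60 h APF the 3 short genes were lower in replicate 1, at 0.732 to 0.798 and 0.599 to 0.751 times their level in replicate 2, and the median ratios of the other 82 were 0.893 and 1.03.

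RpL41, which encodes a very short peptide of the large subunit, had 1488 and 2032 CPM (24 h), 2764 and 1241 (36 h), 3569 and 1049 (48 h), 1257 and 1933 (60 h), and 2839 and 508 (72 h APF). RpL39 of the exit tunnel had 2401 and 291 at 72 h against 523 and 714 at 24 h APF, and RpL29 had 1811 and 476 against 533 and 669. Their libraries of 72 h lay on both sides of those of 24 h. The log2 changes were 0.57 ± 0.85 for RpL41, 1.77 ± 1.07 for RpL39 and 1.56 ± 0.68 for RpL29 (SE, adjusted p = 0.582, 0.183 and 0.0785 by edgeR), and without replicate 1 of 72 h they were -1.32, -0.62 and 0.14. The 3 genes made up 13.1% of the ribosomal protein UMIs in replicate 1 and 1.47% in replicate 2 at 72 h APF. Without them the ribosomal protein share was 4.66 and 8.52% at 72 h against 14.98 and 16.8% at 24 h APF.

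**Figure D3:**
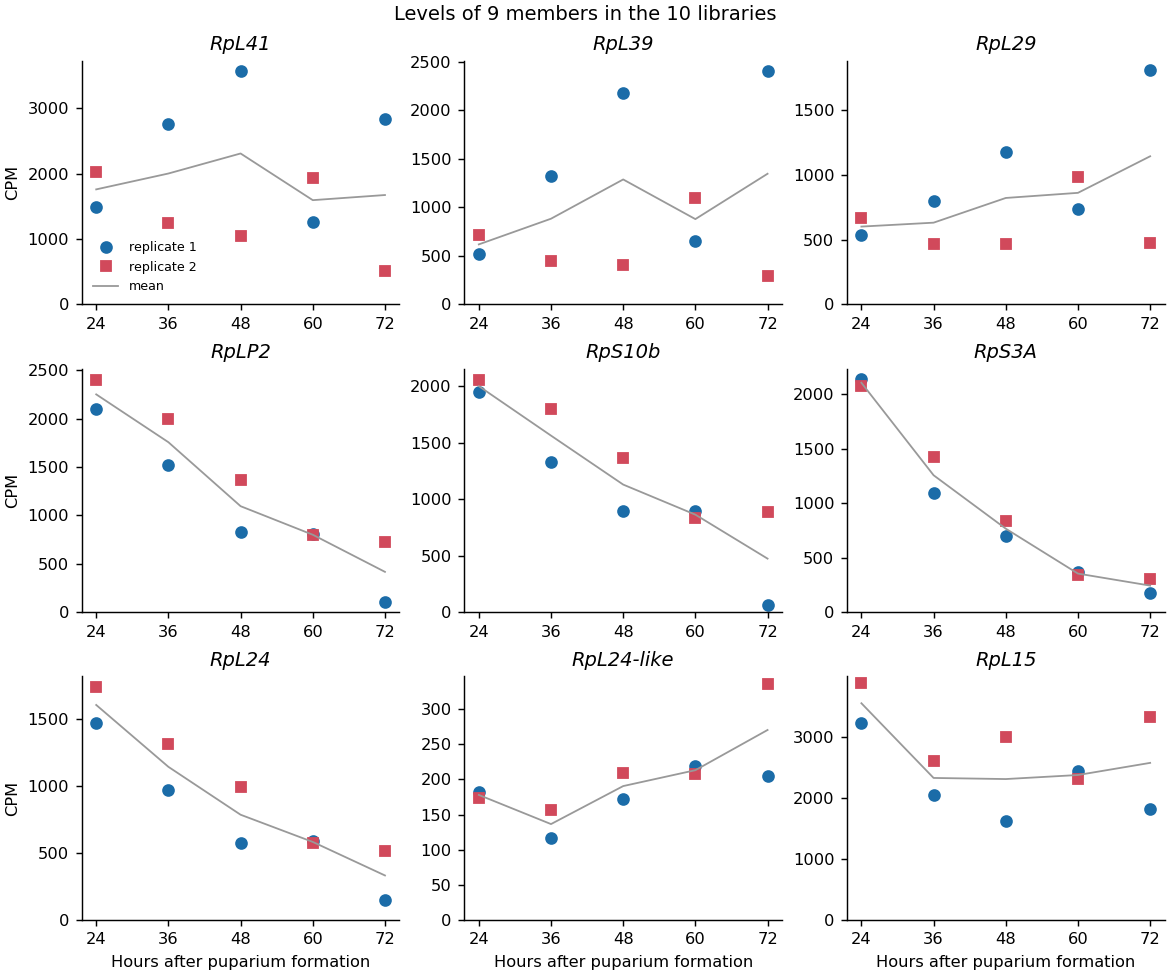
Levels of 9 members in CPM against hours after puparium formation, with a point for each library and a line through the mean of the 2 libraries. RpL41, RpL39 and RpL29 lay far above replicate 2 in replicate 1 of 36, 48 and 72 h, and the other members shown lay below it there. RpS3A went down at every stage with no overlap between stages.

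A further 7 members were at most 0.3 of their replicate 2 level in replicate 1 of 72 h APF, namely RpS10b, RpLP2, RpL18, RpL23A, RpL4, RpL24 and RpL34b. RpS10b was at 60.4 CPM in replicate 1 and 887 in replicate 2, against 1948 and 2056 at 24 h APF. Its change at 72 h against 24 h APF did not pass the test (-1.59 ± 0.86 SE, adjusted p = 0.139 by edgeR). Leaving out replicate 1 of 36, 48 and 72 h, a choice made after the data were seen, leaves these stages without a replicate. The number of members called at 72 h against 24 h APF without these libraries is therefore not read here.

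Genes that work with the ribosomal proteins were taken from lists, with TMM scaling and the same fit. Both further small-subunit proteins, sta and Rack1, fell. sta had 482 and 891 CPM at 72 h against 3110 and 3151 at 24 h APF (log2 change -1.64 ± 0.29 SE, adjusted p = 0.00135 by edgeR), and Rack1 had 408 and 604 against 1185 and 1191 (-0.67 ± 0.20 SE, adjusted p = 0.0173 by edgeR). Of 42 tested translation factors (eEF and eIF genes) 18 were lower and 2 higher, against 29.4 and 29.0% of all tested genes, with a median of -0.38. The elongation factor eEF1beta had 47.3 and 77.2 CPM at 72 h against 548 and 610 at 24 h, and eEF1delta had 5.89 and 8.62 against 54.7 and 52.4. The higher ones were eIF4EHP, a cap-binding repressor of translation, with 1128 and 1486 at 72 h against 394 and 404 at 24 h, and eIF3l with 178 and 241 against 186 and 174 CPM. The rise of eIF3l (log2 change 0.78) exists on the TMM scale, while its levels in CPM overlapped.

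Of 72 tested genes of mitochondrial ribosomal proteins 26 were higher and 3 lower at 72 h against 24 h APF, against 29.0% of all tested genes higher and 29.4% lower, with a median of 0.44. mRpS5 had 385 and 143 CPM at 72 h against 41.7 and 61.5 at 24 h, and mRpL21 had 78.9 and 141 against 48.5 and 52.7. mRpL20 and mRpS21 were lower, with 16.3 and 35.6 against 67.5 and 71.8 and with 41.3 and 42.4 against 92.9 and 95.9 CPM.

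Of 18 genes of ribosome biogenesis 5 were lower and 3 higher, against 29.4 and 29.0% of all tested genes, so that the share of lower genes was near the background, with a median of -0.25. Nlp, a nucleoplasmin-like chaperone, had 2.47 and 4.59 CPM at 72 h against 204 and 210 at 24 h APF, and Nop60B, the enzyme that makes pseudouridine in ribosomal RNA, had 1.99 and 2.91 against 16.3 and 14.9. Among the higher genes, nop5 had 5.89 and 6.81 at 72 h against 5.40 and 5.15 at 24 h. Also counted among the 3 higher genes was pes, with 9.39 and 0.968 at 72 h against at most 0.337 at 24 h. Its replicates at 72 h lay far apart. It was listed by its symbol alone, which does not show that pes acts in ribosome biogenesis. Of 17 genes of growth control 4 were lower and 4 higher, no more than the 29.4 and 29.0% of all tested genes, with a median of 0.02. Myc, a transcription factor that drives ribosome synthesis, had 1.43 and 1.56 CPM at 72 h against 75.9 and 67.5 at 24 h APF, and the insulin receptor gene InR had 69.4 and 93.8 against 568 and 525. Sesn had 41.8 and 16.4 against 1.60 and 2.12, and REPTOR, a transcription factor held back by the growth kinase Tor, had 107 and 111 against 44.6 and 56.5. Of 5 promoter and dosage response factors 1 was lower and 0 were higher, no more than the 29.4 and 29.0% of all tested genes. This was Xrp1, with 6.53 and 8.25 at 72 h against 53.7 and 49.0 CPM at 24 h APF.

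The comparison of T4 with T5 neurons was made within libraries, since both types came from the same sorted cells. Ribosomal protein genes took 10.9% of the UMIs in T4 and 10.8% in T5 neurons as a mean over libraries, and the difference of 0.118 ± 0.358 points (SD, n = 10 libraries) was smaller than its spread. T4 was higher in 7 of 10 libraries. In 20 sums of UMIs with the library as a block (edgeR, adjusted over 6805 genes), 14 of 83 tested members were higher in T4 and 2 were lower, against 11.8 and 9.49% of all tested genes. The median log2 difference of the members was 0.02 and that of all tested genes was -0.01. Without replicate 2 of 48 h, replicate 1 of 60 h or replicate 2 of 60 h APF, 8 members were higher and 2 lower.

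RpS26 was the called member with the largest difference in favour of T4. It had 2562 and 3062 CPM in T4 against 2403 and 2930 in T5 (24 h), 1872 and 2378 against 1888 and 2387 (36 h), 1294 and 2770 against 1080 and 2409 (48 h), 2552 and 2539 against 2142 and 2095 (60 h), and 1364 and 3179 against 975 and 2313 (72 h APF). T4 was above T5 in 8 of 10 libraries, and both exceptions were at 36 h APF. The log2 difference averaged 0.22 ± 0.05 (SE, adjusted p = 0.00923 by edgeR), and by stage it was 0.09, 0.01, 0.24, 0.29 and 0.46 in order of time. This change with stage passed its own test (F test of the stage by type term, adjusted p = 8.28e-10 by edgeR).

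RpL4, which lines the exit tunnel, was higher in T4 in 10 of 10 libraries, with means of 973 in T4 and 897 CPM in T5 (log2 difference 0.15 ± 0.03 SE, adjusted p = 0.00254 by edgeR). RpL24-like had means of 209 in T4 and 186 CPM in T5 and was higher in 8 of 10 libraries (0.16 ± 0.04 SE, adjusted p = 0.0159 by edgeR). In cells of 3000 to 8000 UMIs the call of RpL24-like was lost (adjusted p = 0.104 by edgeR).

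RpS15Ab was lower in T4 in 10 of 10 libraries. This copy of RpS15Aa had 38.5 and 36.7 CPM in T4 against 41.1 and 39.1 in T5 (24 h), 25.2 and 24.7 against 34.3 and 29.8 (36 h), 10.5 and 13.9 against 11.6 and 21.8 (48 h), 10.4 and 8.66 against 14.8 and 17.7 (60 h), and 4.395 and 10.3 against 9.72 and 16.7 (72 h APF). Its log2 difference was -0.44 ± 0.10 (SE, adjusted p = 0.0101 by edgeR), and by stage it was -0.08, -0.30, -0.50, -0.71 and -0.78, which differed between stages (F test, adjusted p = 0.00317 by edgeR). RpS3A was also lower in T4 in 10 of 10 libraries, by a small amount, with means of 918 in T4 and 981 CPM in T5 (-0.10 ± 0.03 SE, adjusted p = 0.0201 by edgeR). The call of RpS3A was lost without replicate 1 (adjusted p = 0.0526, edgeR) and without replicate 2 of 72 h APF (adjusted p = 0.0555, edgeR).

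The balance between T4 and T5 changed with stage for 63 of 83 members, against 33.3% of all tested genes. At 24 h APF 40 members were higher and 1 lower in T4, against 6.47 and 4.75% of all tested genes. At 36 h 0 were higher and 9 lower (6.69 and 3.73%), at 48 h 16 were higher and 9 lower (15.5 and 12.1%), at 60 h 35 were higher and 10 lower (16.6 and 16.3%), and at 72 h APF 17 were higher and 23 lower (16.2 and 18.3%). T4 cells were also deeper than T5 cells at 24 h, with a ratio of mean UMIs per cell of 1.12 to 1.15, and shallower at 72 h APF, with 0.942 to 0.976, and the part of depth in these counts was tested only in the cells of 3000 to 8000 UMIs. There, 11 members were higher and 1 lower in T4 at 24 h APF. How many of all tested genes were called in these cells was not counted, so this number has no background beside it. The median log2 difference there was 0.05 for the members and 0.01 for all tested genes. The sums of T4 and T5 also pooled the subtypes in unequal numbers, and the part of this was not tested. In replicate 2 of 24 h APF T4a to T4d had 1516, 1149, 1128 and 1272 cells, and T5a to T5d had 1013, 694, 449 and 512. The counts at 24 h moved with the settings, with 16 higher and 1 lower under total UMIs, 2 higher and 0 lower without replicate 1, and 8 higher and 0 lower without replicate 2 of that stage. At 36 h APF the 9 lower members became 2 without replicate 1 and 3 without replicate 2 of 36 h, 14 without replicate 2 of 48 h and 5 without replicate 2 of 60 h. At 48 h APF 11 were higher and 5 lower without replicate 1 and 10 higher and 0 lower without replicate 2 of 48 h, and at 72 h 11 were higher and 14 lower without replicate 2 of 72 h.

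**Figure D4:**
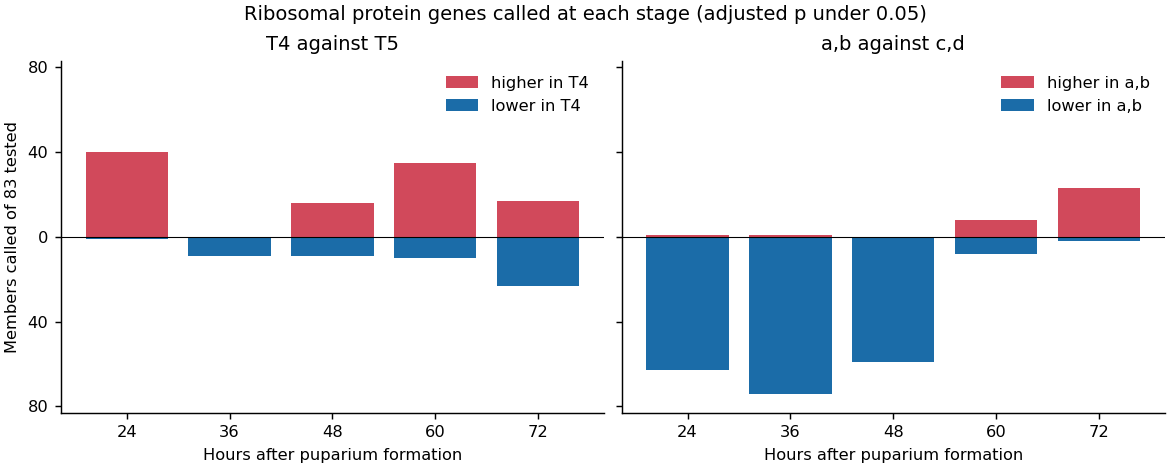
Number of ribosomal protein genes, of 83 tested, called higher (above 0) or lower (below 0) at each stage in T4 against T5 neurons (left) and in subtypes a,b against c,d (right), at an adjusted p under 0.05 by edgeR. In a,b the calls were nearly all lower at 24 to 48 h APF (63, 74 and 59 genes), and 23 genes were higher at 72 h.

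Subtypes a and b together had a smaller part of their UMIs on ribosomal protein genes than c and d. The share was 10.6% in a,b and 11.2% in c,d as a mean over libraries, a difference of -0.606 ± 0.502 points (SD, n = 10 libraries), and a,b was lower in 9 of 10 libraries. In the same kind of fit 19 of 83 tested members were lower and 0 higher in a,b, against 6.05 and 7.88% of all 6826 tested genes. The median log2 difference was -0.06 for the members and 0.00 for all tested genes. The number of lower members was between 9 and 12 when any library of 24, 36 or 48 h APF was left out. The largest difference among the called members was that of RpL35.

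**Figure D5:**
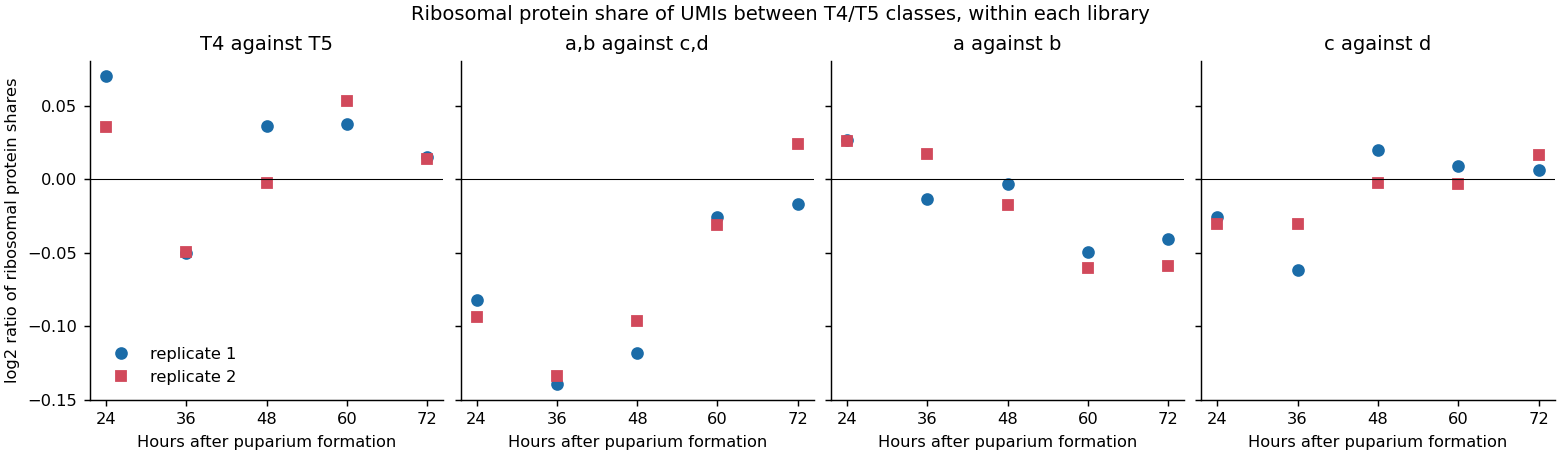
Log2 ratio of the ribosomal protein share of UMIs between 2 sets of cells of the same library (T4 over T5, a,b over c,d, a over b and c over d), against hours after puparium formation, with a point for each library and a line at 0, where the shares are equal. The ratio was above 0 in 7 of 10 libraries for T4 over T5 and below 0 in 9 of 10 for a,b over c,d.

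RpL35, a large-subunit protein next to the tunnel exit, had 1056 and 1373 CPM in a,b against 1132 and 1493 in c,d (24 h), 970 and 1130 against 1138 and 1267 (36 h), 470 and 987 against 577 and 1257 (48 h), 799 and 832 against 1093 and 1119 (60 h), and 365 and 722 against 423 and 801 (72 h APF). It was lower in a,b in 10 of 10 libraries, with a log2 difference of -0.24 ± 0.04 (SE, adjusted p = 0.00153 by edgeR). By stage the log2 difference of RpL35 was -0.13, -0.20, -0.33, -0.42 and -0.12, which differed between stages (F test, adjusted p = 1.65e-07 by edgeR). RpS15Aa had means of 750 in a,b and 848 CPM in c,d (-0.16 ± 0.03 SE, adjusted p = 0.0018 by edgeR), and RpL10Ab had means of 1226 in a,b and 1378 in c,d (-0.15 ± 0.03 SE, adjusted p = 0.0101 by edgeR). Both were lower in a,b in 10 of 10 libraries.

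Most calls of a,b against c,d came from the early stages. At 24 h APF 63 members were lower and 1 higher in a,b, at 36 h 74 were lower and 1 higher, and at 48 h 59 were lower and 0 higher, against 6.77, 7.30 and 12.1% of all tested genes that were lower and 8.20, 8.92 and 10.1% that were higher. At 60 h 8 were lower and 8 higher (10.5 and 10.4%), and at 72 h APF 2 were lower and 23 higher (9.99 and 10.9%). The difference varied with stage for 74 members, against 25.9% of all tested genes. The a,b and c,d cells had similar depths, with a ratio of mean UMIs per cell of 0.966 to 1.04 over the libraries. Without replicate 2 of 24 h APF 21 members were lower and 1 higher at that stage, without replicate 2 of 36 h 45 were lower and 1 higher at 36 h, and without replicate 2 of 72 h 0 were lower and 12 higher at 72 h APF. Under total UMIs 3 were lower and 7 higher at 72 h. At 60 h APF 6 were lower and 1 higher without replicate 1 of 60 h, 4 lower and 1 higher without replicate 2 of 60 h, and 19 lower and 7 higher without replicate 1 of 72 h.

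The difference was also taken within T4 and within T5. Within T4, the ribosomal protein share was lower in a,b than in c,d in 10 of 10 libraries, and the difference was -0.697 and -0.982 points (24 h), -0.948 and -1.13 (36 h), -0.410 and -0.379 (48 h), -0.408 and -0.519 (60 h), and -0.185 and -0.107 points (72 h APF). Within T5, the difference was -0.977 and -1.33 points (24 h), -1.30 and -1.45 (36 h) and -0.997 and -1.21 (48 h), with a,b lower, and 0.130 and 0.182 points (60 h) and 0.0743 and 0.363 points (72 h APF), with a,b higher. At 60 h APF the subtypes of T4 had shares of 8.27 ± 0.0826% in T4a, 8.67 ± 0.133% in T4b, 8.94 ± 0.0928% in T4c and 8.95 ± 0.0497% in T4d, and those of T5 had 8.35 ± 0.161% in T5a, 8.61 ± 0.0471% in T5b, 8.38 ± 0.127% in T5c and 8.30 ± 0.151% in T5d (SD, n = 2 libraries). At 24 h the shares of T4a to T4d were 16.1 ± 1.09, 15.8 ± 1.19, 16.7 ± 1.22 and 16.9 ± 1.45%, and those of T5a to T5d were 15.5 ± 1.41, 15.2 ± 1.27, 16.3 ± 1.69 and 16.8 ± 1.46% (SD, n = 2 libraries). No test was made of these summed shares.

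Between subtypes a and b, and between c and d, few members differed on average over the stages. Of 83 tested members 0 were higher and 0 lower in a against b, where 1.94 and 1.77% of all 6496 tested genes were called (edgeR). Between a and b 3 members had an unadjusted p under 0.05 (edgeR), against 824 of all 6496 tested genes, and DESeq2 called 0. In c against d 0 members were higher and 1 was lower, RpL40, against 1.57 and 1.83% of all 6444 tested genes. RpL40 had means of 2272 in c and 2359 CPM in d and was lower in c in 10 of 10 libraries (log2 difference -0.07 ± 0.01 SE, adjusted p = 0.00911 by edgeR), a call that was lost in cells of 3000 to 8000 UMIs (adjusted p = 0.0953 by edgeR). The difference varied with stage for 21 members in a against b and for 5 in c against d, against 11.0 and 9.05% of all tested genes. The 21 became 7 without replicate 2 of 24 h, 12 without replicate 2 of 48 h and 5 without replicate 2 of 72 h APF.

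By stage, the calls between a and b lay on opposite sides at the first and the last stages. In a, 6 members were higher and 0 lower at 24 h (2.85 and 2.51% of all tested genes), 0 were higher and 0 lower in the 36 h libraries (2.17 and 1.88%), 2 were higher and 1 lower at 48 h (4.60 and 4.0%), 0 were higher and 5 lower at 60 h (4.16 and 3.28%), and 0 were higher and 14 lower at 72 h APF (3.29 and 3.43%). The 6 higher members of 24 h became 0 without replicate 1 and 1 without replicate 2 of 24 h. The 5 lower members of 60 h became 3 without replicate 1 and 0 without replicate 2 of 60 h, and 17 under total UMIs. The 14 lower members of 72 h became 7 without replicate 1 and 1 without replicate 2 of 72 h. The 3 calls of 48 h became 1 without either library of 48 h, and 1 member was called at 36 h without replicate 2 of 48 h APF.

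In c against d, 0 members were higher and 2 lower at 24 h (2.0 and 2.34% of all tested genes), 0 were higher and 8 lower in the 36 h libraries (1.51 and 2.05%), 1 was higher and 1 lower at 48 h (3.88 and 3.29%), 2 were higher and 0 lower at 60 h (2.95 and 3.37%), and 0 were higher and 1 lower at 72 h APF (2.30 and 2.44%). The 8 lower members of 36 h became 0 without replicate 1 and 2 without replicate 2 of 36 h, 16 without replicate 1 and 14 without replicate 2 of 48 h, and 4 without replicate 2 of 60 h. With the ribosomal protein genes kept in the clustering they were 33. The calls of 24 h were lost without either library of 24 h, and those of 72 h without either library of 72 h. At 48 h 0 members were called without replicate 1 and 1 without replicate 2 of 48 h, and at 60 h APF 1 was called without either library of 60 h.

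Without the library as a block, 1 member was called in T4 against T5, 0 in a,b against c,d and 0 in c against d. Without the 3 libraries rich in RpL41 (replicate 1 of 36, 48 and 72 h APF) 6 members were higher and 0 lower in T4, and 0 were higher and 3 lower in a,b.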

How the data were processed

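The authors mapped the reads and counted UMIs per gene and barcode with Cell Ranger (version 3) on the *D. melanogaster* genome of Ensembl release 97, with the sequences of the transgenes appended. The deposited files hold these raw counts, as whole numbers and not normalised, for barcodes called as cells. Whether reads of antisense genes were told apart is not given in the sources used here. Depth was 12798989 to 62530395 UMIs in a library, of which the named cells held 7580523 to 38610000, so counting error is small for abundant members.

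Barcodes with at least 200 UMIs and at most 10% of UMIs each on mt: and Hsp genes were kept, and the highest Scrublet scores (scanpy version 1.11.5, seed 20) were left out as doublets, at 0.8% per 1000 barcodes. Each stage was integrated and clustered in 2 rounds in Seurat (version 5.3.0, 2000 variable genes without ribosomal protein genes). After the first round, clusters of shallow cells, of stressed cells, of doublets or of cells low in SoxN, Lim1 and Sox102F were removed. Clusters were named from TfAP-2 (T4), Dscam3, beat-IIIb and Fas2 (a,b), Con, mav and robo3 (c,d), CG34353, Tl and side-II (a and b) and side-IV and side-II (c and d), by limits set after the data were seen.

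UMIs were summed over the named cells of a library, or of each side of a subtype comparison in it, and tested with edgeR (version 4.0.16, R version 4.3.3; TMM, filterByExpr, quasi-likelihood test, two-sided, Benjamini-Hochberg over all tested genes). Subtype comparisons had the library as a block, and a fit with a stage by side term gave the values by stage. The fits were tested on simulated data with known changes. At 72 h against 24 h APF 0 of 67 genes changed 1.5-fold, 6 of 67 changed 2-fold and 53 of 65 changed 4-fold were called. In these simulated data the fit therefore missed most changes of 2-fold or less. Few genes were changed there, whereas in the real data 2341 were called higher and 2375 lower of 8070. The part that is missed may therefore differ in the real fit. RpL38, for example, was called there at a log2 change of -0.53 (adjusted p = 0.0274 by edgeR). Of genes changed 1.2-fold, 38 of 67 were called in T4 against T5 and 32 of 67 in a,b against c,d. Alternatives were RLE scaling, total UMIs, TMM without ribosomal protein genes, no filter, DESeq2 (version 1.42.0), doublets kept, cells of 3000 to 8000 UMIs, ribosomal protein genes kept in the clustering, all barcodes, no library block, a replicate block and leaving out each library.

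Members, gene lists, tests and alternatives were chosen with earlier results of these data known. Named members were the 5 highest, the 5 called ones with the largest change in each direction at 72 h against 24 h APF, the 3 in each direction in each subtype comparison, close copies with their partners, and members under 10 UMIs, and from each other list the 2 largest called changes in each direction. RpL5, RpS30, RpLP1, RpLP2, RpL41, RpL39, RpL29, RpL18 and RpL23A were named after their values were seen. Positions and exon lengths came from an Ensembl annotation (BDGP6.54), a later release than that of the counts, in which all 92 members matched by gene identifier.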

Additional observations from a re-analysis of the deposited data

Results flagged for a closer look

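Differences between cell types that changed with the stage were picked out by a test of the change itself (the F test of the stage by side term of edgeR, adjusted over all tested genes). In T4 against T5 neurons this held for 63 of 83 members, against 33.3% of all tested genes, and in subtypes a,b against c,d for 74, against 25.9%. In a against b it held for 21 members and in c against d for 5, against 11.0 and 9.05% of all tested genes. The 21 members became 7, 12 and 5 without replicate 2 of 24, 48 and 72 h APF.

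Among the named members of T4 against T5, the adjusted p of this edgeR test was 8.28e-10 for RpS26, 0.00109 for RpL24-like, 0.00317 for RpS15Ab, 0.00413 for RpL4 and 0.0121 for RpS3A. The log2 difference by stage ran between 0.01 and 0.46 for RpS26, between 0.01 and 0.32 for RpL24-like, between -0.78 and -0.08 for RpS15Ab, between 0.05 and 0.24 for RpL4 and between -0.22 and -0.02 for RpS3A. In a,b against c,d it was 1.65e-07 for RpL35 (log2 differences between -0.42 and -0.12), 0.000721 for RpL10Ab (between -0.27 and -0.03) and 0.00123 for RpS15Aa (between -0.20 and -0.02).

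At 60 h APF the ribosomal protein share in a,b minus that in c,d was -0.464 points as the mean of the T4 libraries and 0.156 points as the mean of the T5 libraries. At 72 h APF the means were -0.146 points in T4 and 0.218 points in T5. Both libraries of each stage went one way in T4 and the other way in T5, and this difference was not tested.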

How the results depend on the processing

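With 2 libraries at a stage and small differences between subtypes, counts of called members moved more than the shares and log2 changes behind them, and the cause was not tested. Counts are of members called in either direction, and the share of all tested genes was not counted for these alternatives. Total UMIs gave 72 (44 with TMM) at 72 h against 24 h, 37 (19) in a,b against c,d, 17 (41) in T4 against T5 at 24 h, 14 (9) at 36 h, and 10 (25) in a,b against c,d at 72 h APF. DESeq2 gave 35 in a,b against c,d and 6 in c against d (1 with edgeR), RLE scaling 2 and no filter 2 in c against d. Cells of 3000 to 8000 UMIs gave 12 in T4 against T5 at 24 h, 4 at 36 h, 0 in c against d, and 13 (21) whose difference in a against b varied with stage, and ribosomal protein genes kept in the clustering gave 18 in T4 against T5 at 24 h and 27 (16) in a,b against c,d at 60 h APF. Without the library block 1 member was called in T4 against T5 (16 with it), 0 in a,b against c,d and 0 in c against d.

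Without replicate 1 of 36, 48 and 72 h APF, chosen after seeing the data, the counts were 4 at 36 h against 24 h (1), 4 at 48 h against 36 h (1), 28 at 60 h against 48 h (2), 8 at 72 h against 60 h (3), 44 relative to the ribosomal protein total at 72 h against 24 h (23), 6 in T4 against T5, 62 in it at 24 h and 3 at 36 h, 3 in a,b against c,d, 33 in it at 60 h, and 0 in c against d. Leaving out each library gave 22 to 66 at 72 h against 24 h, 0 to 2 at 36 h against 24 h, 0 to 3 at 48 h against 36 h, 0 to 3 at 60 h against 48 h, 0 to 12 at 72 h against 60 h, and 9 to 31 relative to the ribosomal protein total. In T4 against T5 it gave 10 to 19, and by stage 2 to 56, 2 to 14, 10 to 31, 30 to 47 and 25 to 42. In a,b against c,d it gave 9 to 24, and by stage 22 to 77, 46 to 77, 43 to 65, 5 to 26 and 12 to 31, and in c against d 1 to 2. By stage it gave 0 to 6, 0 to 1, 1 to 3, 0 to 7 and 1 to 17 in a against b, and 0 to 3, 0 to 16, 0 to 2, 1 to 2 and 0 to 1 in c against d. Members whose difference varied with stage were 45 to 67 in T4 against T5, 60 to 78 in a,b against c,d, 5 to 27 in a against b and 4 to 5 in c against d.

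The replicate numbers went together among 36, 48 and 72 h APF, with correlations of their deviations of 0.341 (36 and 48 h), 0.394 (36 and 72 h) and 0.653 (48 and 72 h), but not over all stages, as the other 7 pairs of stages ran between -0.423 and 0.0437. They were therefore not taken as pairs. A replicate block gave 57 called members at 72 h against 24 h APF (44 without it) and 2 at 48 h against 36 h.

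Counts by stage between single subtypes were small and moved with most settings. In a against b, RLE scaling gave 1 at 36 h (0) and 3 at 60 h (5), total UMIs 3 at 24 h (6) and 17 at 60 h, TMM without ribosomal protein genes 1 at 36 h, doublets kept 3 at 60 h, cells of 3000 to 8000 UMIs 3 at 24 h and 2 at 60 h, ribosomal protein genes in the clustering 11 at 24 h, 1 at 36 h and 9 at 60 h, and no replicate 1 of 36, 48 and 72 h 1 at 48 h (3) and 8 at 72 h (14). In c against d, RLE gave 4 at 24 h (2), total UMIs 2 at 36 h (8), 1 at 48 h (2) and 0 at 72 h (1), doublets kept 4 at 60 h (2), cells of 3000 to 8000 UMIs 0, 1, 1 and 0 at 24, 36, 48 and 72 h, ribosomal protein genes in the clustering 5 at 24 h and 33 at 36 h, and no replicate 1 of 36, 48 and 72 h 0, 0, 4 and 0 at 36, 48, 60 and 72 h. Members whose difference in c against d varied with stage (5) were 3 in cells of 3000 to 8000 UMIs, 8 with ribosomal protein genes in the clustering and 3 without replicate 1 of 36, 48 and 72 h.

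The ribosomal protein share was 17.6% at 24 h and 9.22% at 60 h APF without mt: and Hsp genes, and 8.26% at 60 h over all barcodes. At 72 h against 24 h APF the sign turned under total UMIs for RpL15 (-0.46), RpS26 (-0.51) and RpL41 (-0.073), and with the replicate block for RpS26 (-0.033). It also turned for RpL15 and RpS26 without replicate 1 of 24 h (-0.10 and -0.15) and without replicate 2 of 72 h (-0.30 and -0.57), and for RpL28, RpL41 and RpL39 without replicate 1 of 72 h (0.028, -1.32 and -0.62). For RpS28b it turned under total UMIs (-0.47), for RpL5 under RLE and DESeq2 (0.0032 and 0.0033), and without replicate 1 of 36, 48 and 72 h for RpL5 (0.29) and RpS30 (0.15). Leaving out each library gave -0.42 to 0.29 for RpL5, -0.22 to 0.33 for RpS28b, -0.37 to 0.16 for RpS30, -0.30 to 0.38 for RpL15, -0.57 to 0.45 for RpS26, -0.67 to 0.028 for RpL28, -1.32 to 1.35 for RpL41 and -0.62 to 2.62 for RpL39, and without replicate 1 of 36, 48 and 72 h RpL28 was at 0.027. None of these genes had passed the test.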

Other observations

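Sorted cells that were not named as T4/T5 neurons also held ribosomal protein UMIs. Clusters with little SoxN, Lim1 and Sox102F held 3666 cells in all, and their ribosomal protein share was 19.3 and 18.5% (24 h), 7.65 and 12.54% (36 h), 8.50 and 13.3% (48 h), 10.4 and 10.4% (60 h), and 6.07 and 10.0% (72 h APF) for replicates 1 and 2. These shares were above those of the named cells of the same library except in replicates 1 and 2 of 36 h and replicate 1 of 48 h APF. Depth differed too, and its part was not tested. At 36 h the median was 1179 UMIs in the 88 cells of replicate 1, against 8397 in its named cells. In replicate 2 of 36 h APF it was 4866 against 3712.

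Within the named cells, those with few UMIs in all gave a smaller part of them to ribosomal proteins in 8 of 10 libraries when cells of 2000 to 4000 UMIs were set against those of 4000 to 8000. The share was 10.7 against 15.4% in replicate 1 and 15.7 against 17.4% in replicate 2 at 24 h, and 3.98 against 8.97% in replicate 1 and 11.2 against 11.7% in replicate 2 at 48 h APF. For 72 h the values were 5.51 against 5.46% in replicate 1 and 8.71 against 8.66% in replicate 2.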
